A study of Mus musculus with 16 samples.

Results

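This section describes 9 genes of serine synthesis and one-carbon metabolism (Phgdh, Psat1, Psph, Shmt1, Shmt2, Mthfd1, Mthfd2, Mthfd1l and Tyms) in mouse CD4+ T cells. They were taken by symbol from the 53090 genes of the expression tables, and each symbol matched 1 gene. RNA-seq was performed on 16 libraries in 4 groups of 4, numbered #1 to #4 in their titles. The WT Tn and Aim2-/- Tn groups were naïve CD4+ T cells, freshly isolated from the spleens of C57BL/6 mice and of Aim2-/- mice on the C57BL/6 background. These cells were taken by magnetic selection of CD44low CD62Lhigh cells and were never cultured. The WT Treg and Aim2-/- Treg groups were CD4+ T cells of the same genotypes after 2 days (48 h) with anti-CD3 and anti-CD28 antibodies, recombinant human TGF-beta and recombinant mouse IL-2. Per the methods of the study, Treg cultures were started from naïve CD4+ T cells selected in the same way. WT and Aim2-/- mice were matched for sex and age and housed together, and the sources used here do not give their age. Aim2 encodes a cytosolic sensor of double-stranded DNA, and the study asked what its loss does to naïve cells and to induced Treg cells. The titles of the naïve libraries number mice and those of the cultured libraries do not, and the sources used here do not state whether mice were pooled or whether each culture came from its own mouse. The p-values measure the spread between these libraries, which may be technical in part. Because the cultured groups differ from the naïve groups in antibody stimulation, cytokines and time together, these cannot be told apart.

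Cells make serine from the glycolytic intermediate 3-phosphoglycerate through 3 enzymes. Serine hydroxymethyltransferase then splits serine into glycine and a one-carbon unit that is carried on tetrahydrofolate, and this carrier cycle runs both in mitochondria and in the cytosol. The one-carbon units are used to build purines and thymidylate and to recharge methionine, and T cells that have been activated through the T cell receptor are known to induce the pathway as they grow and divide.

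Phgdh encodes phosphoglycerate dehydrogenase, the first step from 3-phosphoglycerate, Psat1 the aminotransferase of the second step and Psph the phosphatase that releases serine. Shmt1 and Shmt2 encode the cytosolic and the mitochondrial serine hydroxymethyltransferase. Mthfd2 and Mthfd1l encode mitochondrial enzymes that oxidize the one-carbon unit and release it as formate, and Mthfd1 the cytosolic enzyme with all 3 activities that takes formate up again. Tyms encodes thymidylate synthase, which spends a one-carbon unit to make the DNA precursor dTMP. All are protein-coding genes. On GRCm38, with the annotation of GENCODE M21, Phgdh lies at chr3:98313170-98339990 (minus strand), Psat1 at chr19:15904678-15947337 (minus) and Psph at chr5:129765558-129787449 (minus). Shmt1 lies at chr11:60788104-60811718 (minus) and Shmt2 at chr10:127517123-127522444 (minus). Mthfd1 lies at chr12:76255298-76319803 (plus), Mthfd2 at chr6:83305691-83325908 (minus), Mthfd1l at chr10:3973118-4167081 (plus) and Tyms at chr5:30058202-30073617 (minus). No member shared exon bases with a gene on its own strand. On the opposite strand, exons overlapped Cct6a at Psph (452 bases), Smcr8 at Shmt1 (184 bases), Gm47525 at Mthfd1 (37 bases) and Ndufa4l2 at Shmt2 (32 bases). The libraries were stranded, but the strand setting of the counting is not given in the sources used here, so reads in those bases cannot be assigned with certainty. Expected counts, which RSEM splits where a read fits several genes, were more than 0.005 from a whole number in all 16 libraries for Psph and for Shmt1 and in 15 for Phgdh, and within that tolerance in every library for the other 6 members.

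The promoter windows of all 9 members were found in the RefSeq promoter table for GRCm38.p6 (250 bases before to 50 bases after each start). They were searched on both strands for the E-box CACGTG, to which MYC and other factors bind, for the amino acid response core TGATGNAA, to which ATF4 binds, and for the E2F sequences TTCCCGC and TTGGCGC. The 3 promoters with a match before or across the start are shown, because these factors are known to act on genes of the pathway. The match is in capitals. The sequences run 5′ to 3′ on the gene's strand, those of Tyms and Mthfd1 end 1 base before the start, and that of Phgdh ends where its match ends.

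Tyms: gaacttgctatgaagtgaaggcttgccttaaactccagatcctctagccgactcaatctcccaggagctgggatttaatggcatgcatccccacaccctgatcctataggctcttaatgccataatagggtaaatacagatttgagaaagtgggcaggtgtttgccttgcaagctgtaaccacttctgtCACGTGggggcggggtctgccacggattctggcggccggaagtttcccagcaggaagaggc
Phgdh: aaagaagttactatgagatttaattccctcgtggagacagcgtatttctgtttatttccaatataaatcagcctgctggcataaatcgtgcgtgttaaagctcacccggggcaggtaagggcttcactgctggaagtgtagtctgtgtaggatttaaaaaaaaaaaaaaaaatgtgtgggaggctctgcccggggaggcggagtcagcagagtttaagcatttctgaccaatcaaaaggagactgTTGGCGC
Mthfd1: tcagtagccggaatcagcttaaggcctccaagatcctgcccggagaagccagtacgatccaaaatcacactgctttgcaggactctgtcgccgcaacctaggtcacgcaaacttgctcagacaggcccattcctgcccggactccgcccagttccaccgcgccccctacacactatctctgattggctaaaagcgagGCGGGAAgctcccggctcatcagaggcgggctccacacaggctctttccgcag

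The Tyms window is chr5:30073626-30073875 (minus strand), and its E-box begins 61 bases before the start. The Phgdh window is chr3:98339968-98340219 (minus strand), with TTGGCGC beginning 5 bases before the start. The Mthfd1 window is chr12:76254982-76255231 (plus strand), with TTCCCGC on the opposite strand in the bases that begin 53 before the start. Shmt1 held TTGGCGC on the opposite strand, beginning at base 25 after the start. None of the 10 member windows (Psat1 has 2) held TGATGNAA. Of all 32851 promoters in the table, 7.15% held CACGTG, 3.97% TGATGNAA, 4.60% TTCCCGC and 2.45% TTGGCGC. The starts are those of the RefSeq table and can differ from the GENCODE gene ends given above. For Tyms, Mthfd1 and Mthfd1l, the 50 bases after the start were not found whole in a GENCODE M21 transcript of the gene. For the other member windows they were. The matches describe letters in these windows and say nothing about binding.

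Levels are given as CPM, the share of a library's counts on the usual CPM scale, after TMM scaling over the 16 libraries. Library totals ran from 22516424 to 34533316 counts. The floor used here, 3 counts, came to between 0.0869 and 0.133 CPM of those totals and covers counting error only. All members had at least 73 counts in each library. Aim2 was lower in every Aim2-/- library (6.61 to 9.26 CPM in Tn and 7.17 to 10.8 in Treg) than in every WT library (32.3 to 43.3 CPM), as the labels say. The summed CPM of 5 naïve T cell markers was 3798 to 5019 in the 8 Tn and 648 to 1007 in the 8 Treg libraries. That of 5 Treg markers was 59.4 to 128 in Tn and 1730 to 2237 in Treg. The WT Tn libraries #3 and #4 stood apart from #1 and #2, with summed Treg markers of 59.4 and 65.0 against 122 and 118 CPM. Markers of other cells were low, with sums of at most 2.27 CPM for 6 B cell genes and at most 19.9 CPM for 7 myeloid genes in any library, and Ms4a1 was at 0 throughout. In bulk RNA, fewer cells of a type and less RNA per cell cannot be told apart.

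All 9 members were higher after culture in both genotypes, from 2.38-fold for Psph to 32.8-fold for Tyms in WT cells and from 2.59-fold to 29.9-fold in Aim2-/- cells. No member passed the test between genotypes in either state. Each comparison used edgeR's two-sided quasi-likelihood test on the 8 libraries concerned, with Benjamini-Hochberg adjustment over all genes tested and a threshold of 0.05. All members were among the genes tested.

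In WT cells, 9 of 9 members passed the test in the upward direction and 0 in the downward direction, where 76.9% of the 13675 genes tested passed in some direction, 37.7% higher and 39.2% lower after culture. The 4 Tn and the 4 Treg libraries did not overlap for any member, which 37.2% of all genes also showed with Treg higher. In Aim2-/- cells, 9 of 9 members passed upward, beside 79.3% of 13713 genes in some direction, 39.1% higher and 40.2% lower, and again no member overlapped, as 37.3% of genes with Treg higher. The median log2 fold change of the members was 2.67 in WT and 2.84 in Aim2-/- cells, beside -0.05 and -0.04 over all genes tested. Upper-quartile scaling lowered the median over all genes by 0.12 in WT and by 0.17 in Aim2-/- cells on the log2 scale, and all members still passed upward with it.

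**Figure D1:**
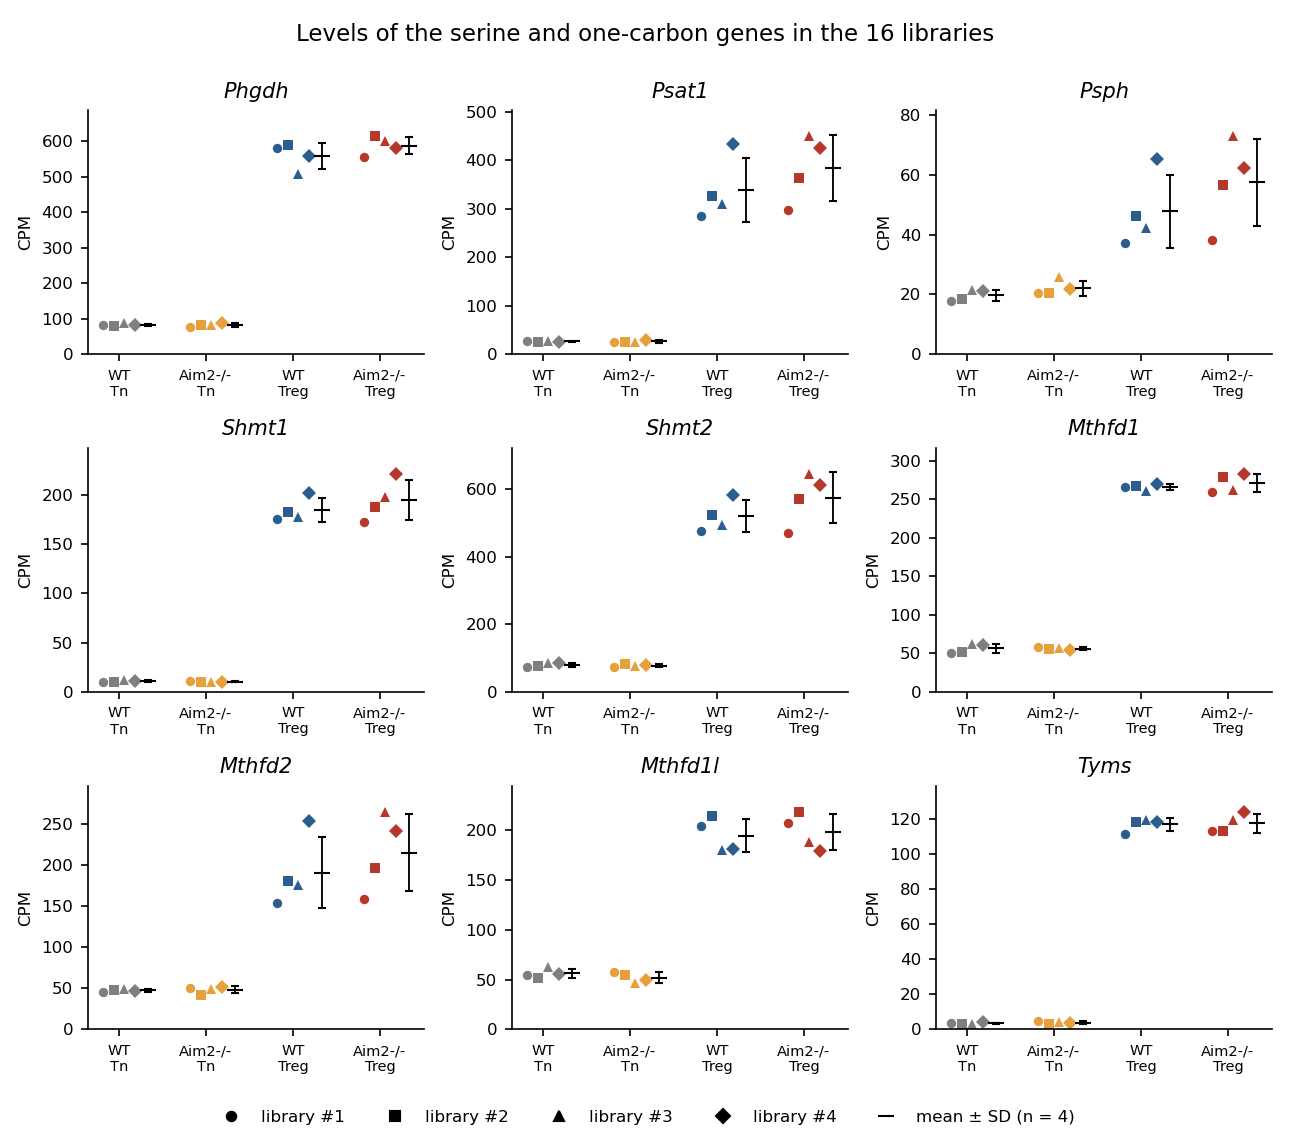
CPM of each member (y axis, from 0) in the 16 libraries of the 4 groups (x axis). Points are single libraries, with the shape giving the library number, and the bar beside them is the mean ± SD of 4 libraries. Every Treg library lies above every Tn library of its genotype, and in Psat1, Psph, Mthfd2 and Shmt2 the libraries WT Treg #4 and Aim2-/- Treg #3 and #4 are the highest.

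Among the genes of serine synthesis, Phgdh stood at 81.1, 79.3, 86.9 and 81.2 CPM in WT Tn libraries #1 to #4 and at 75.3, 80.5, 81.3 and 88.1 CPM in Aim2-/- Tn. In WT Treg it stood at 582, 590, 508 and 560 CPM and in Aim2-/- Treg at 557, 614, 600 and 581 CPM. The genotypes overlapped in both states, and the states were far apart. The log2 fold change with culture was 2.74 ± 0.07 (SE, n = 4 and 4) in WT (edgeR adjusted p = 1.9e-09) and 2.84 ± 0.08 in Aim2-/- cells (adjusted p = 1.2e-10).

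Psat1 was at 27.2, 24.8, 27.2 and 25.8 CPM in WT Tn and at 25.0, 25.8, 23.9 and 28.9 CPM in Aim2-/- Tn. It reached 284, 326, 309 and 434 CPM in WT Treg and 296, 363, 449 and 425 CPM in Aim2-/- Treg. Tn libraries were close together, and in Treg WT #4 and Aim2-/- #3 and #4 lay above the rest. Psat1 rose by 3.65 ± 0.14 (log2, SE) in WT (edgeR adjusted p = 1.2e-08) and by 3.88 ± 0.14 in Aim2-/- cells (adjusted p = 6.3e-10), the largest rise of the 3 genes.

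Psph had the smallest rise of the members. It was at 17.9, 18.4, 21.3 and 20.99 CPM in WT Tn and at 20.3, 20.4, 25.7 and 21.7 CPM in Aim2-/- Tn. In WT Treg it was at 37.2, 46.3, 42.3 and 65.2 CPM, and in Aim2-/- Treg at 38.1, 56.5, 72.8 and 62.3 CPM. The same 3 Treg libraries were high as for Psat1. The rise was 1.25 ± 0.16 (log2, SE) in WT (edgeR adjusted p = 6.8e-05) and 1.37 ± 0.17 in Aim2-/- cells (adjusted p = 2.4e-05), and 18.6% of all genes tested in WT had a larger log2 fold change.

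Of the serine hydroxymethyltransferases, the cytosolic Shmt1 rose more than the mitochondrial Shmt2. Shmt1 went from 10.1, 9.45, 11.9 and 10.9 CPM in WT Tn to 176, 183, 178 and 203 CPM in WT Treg. In Aim2-/- cells it went from 10.5, 9.95, 10.1 and 9.55 CPM to 173, 188, 198 and 221 CPM. Its log2 fold change was 4.10 ± 0.10 (SE) in WT (edgeR adjusted p = 9.4e-10) and 4.27 ± 0.10 in Aim2-/- cells (adjusted p = 2.3e-11), and only 3.99% and 3.76% of the genes tested rose by more. Shmt2 went from 73.1, 77.3, 85.3 and 84.4 CPM to 474, 523, 494 and 583 CPM in WT, with a log2 fold change of 2.67 ± 0.09 (adjusted p = 6.1e-09). In Aim2-/- cells it went from 73.5, 81.6, 76.1 and 78.7 CPM to 469, 571, 644 and 613 CPM, a log2 fold change of 2.88 ± 0.11 (adjusted p = 8.0e-10).

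Of the 3 genes that carry the one-carbon unit through folate, Mthfd1 had the highest estimate of the rise and Mthfd1l the lowest in both genotypes. Mthfd1 stood at 50.4, 52.1, 61.6 and 61.0 CPM in WT Tn and 57.7, 55.2, 56.8 and 54.6 CPM in Aim2-/- Tn, and at 265, 267, 261 and 269 CPM in WT Treg and 259, 278, 262 and 282 CPM in Aim2-/- Treg. Mthfd2 stood at 45.5, 48.1, 49.1 and 47.1 CPM in WT Tn and 50.5, 41.9, 49.7 and 51.9 CPM in Aim2-/- Tn, and at 154, 180, 175 and 254 CPM in WT Treg and 158, 197, 265 and 241 CPM in Aim2-/- Treg. Mthfd1l stood at 54.6, 52.1, 63.0 and 56.0 CPM in WT Tn and 58.1, 54.6, 46.2 and 49.4 CPM in Aim2-/- Tn, and at 204, 214, 180 and 181 CPM in WT Treg and 207, 219, 188 and 179 CPM in Aim2-/- Treg. Mthfd1 was even across the cultured libraries, Mthfd2 was high in the same 3 libraries as Psat1 and Psph, and Mthfd1l was lower in libraries #3 and #4 than in #1 and #2 in both genotypes. In WT cells the log2 fold changes were 2.21 ± 0.08 for Mthfd1, 1.98 ± 0.14 for Mthfd2 and 1.76 ± 0.09 for Mthfd1l (SE, edgeR adjusted p of at most 9.0e-07). In Aim2-/- cells they were 2.26 ± 0.07, 2.14 ± 0.15 and 1.92 ± 0.10 (adjusted p of at most 1.6e-07).

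Tyms rose most. It was at 3.66, 2.89, 3.34 and 3.99 CPM in WT Tn and at 4.65, 3.02, 4.32 and 3.64 CPM in Aim2-/- Tn. In WT Treg it was at 111, 118, 119 and 118 CPM, and in Aim2-/- Treg at 113, 113, 119 and 124 CPM. The cultured libraries of both genotypes fell within a narrow range. The log2 fold change was 5.04 ± 0.11 (SE) in WT (edgeR adjusted p = 6.0e-10) and 4.90 ± 0.13 in Aim2-/- cells (adjusted p = 6.2e-11), and 2.68% and 2.95% of all genes tested had a larger one. The summed CPM of 8 cell cycle genes moved with culture too, from 325 to 428 in the 8 Tn libraries to 4399 to 4959 in the 8 Treg libraries, and all 8 passed upward in both genotypes. Their part in the rise of the members was not tested.

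**Figure D2:**
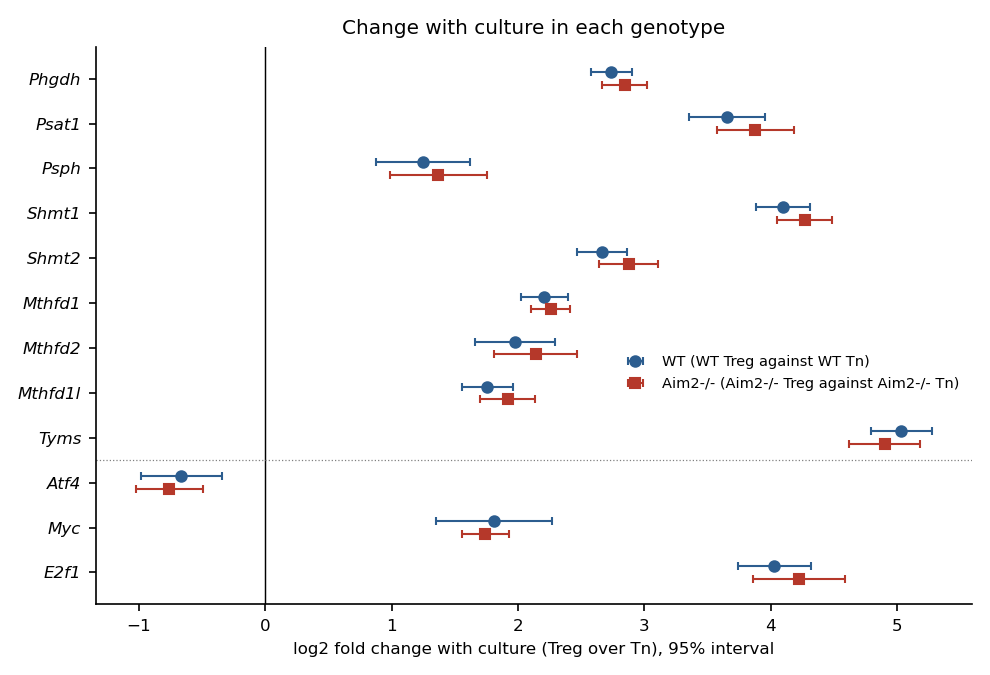
Log2 fold change with culture (x axis, Treg over Tn) of the 9 members and, below the dotted line, of 3 transcription factor genes (y axis), in WT (circles) and Aim2-/- cells (squares) with 95% intervals. All members lie right of 0 in both genotypes with overlapping intervals, from Psph (1.25 in WT) to Tyms (5.04 in WT), and Atf4 lies left of 0.

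Per length of merged exons, Phgdh and Shmt2 had the highest levels of the members in every group. In WT Tn, Phgdh was at 33.03 ± 1.32 CPM per kilobase (SD, n = 4) and Shmt2 at 25.7 ± 1.9, which 9.001% and 11.8% of the genes tested in all libraries exceeded. Mthfd2 (13.6 ± 0.4), Mthfd1l (12.7 ± 1.1) and Mthfd1 (12.7 ± 1.3) followed without differing beyond their spread. Psat1 (6.18 ± 0.28), Psph (4.53 ± 0.41), Shmt1 (2.72 ± 0.27) and Tyms (0.57 ± 0.08) came last. In WT Treg, Phgdh was at 225 ± 15 and Shmt2 at 167 ± 15 CPM per kilobase, which 1.23% and 1.70% of the genes exceeded. Psat1 came next at 79.5 ± 15.5, ahead of Mthfd1 (59.8 ± 0.8), Mthfd2 (54.7 ± 12.5), Shmt1 (47.6 ± 3.1) and Mthfd1l (43.9 ± 3.8), of which neighbours overlapped within their spread. Tyms (19.2 ± 0.6) and Psph (11.03 ± 2.82) were lowest. Aim2-/- cells gave the same first 2 genes, with Phgdh at 237 ± 10 and Shmt2 at 185 ± 24 CPM per kilobase after culture. With the length of the principal transcript instead, chosen after the values were seen, Psph (11.3) stood above Psat1 (10.04) in WT Tn and Mthfd2 (91.5) above Mthfd1 (81.9) in WT Treg.

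The mRNA ratio of the mitochondrial to the cytosolic gene fell with culture for Shmt2 to Shmt1 and for Mthfd1l to Mthfd1. For Mthfd2 to Mthfd1 the states overlapped. Per length, the Shmt2 to Shmt1 ratio was 9.08, 10.2, 8.97 and 9.63 in WT Tn and 8.72, 10.2, 9.42 and 10.3 in Aim2-/- Tn. It was 3.36, 3.57, 3.47 and 3.598 in WT Treg and 3.40, 3.80, 4.07 and 3.46 in Aim2-/- Treg. The states did not overlap and the genotypes did. The Mthfd1l to Mthfd1 ratio also fell without overlap within a genotype, from 1.01 ± 0.07 to 0.735 ± 0.061 (SD, n = 4) in WT and from 0.930 ± 0.089 to 0.736 ± 0.076 in Aim2-/- cells. The Mthfd2 to Mthfd1 ratio was 1.08 ± 0.10 in WT Tn and 0.914 ± 0.200 in WT Treg, and 1.10 ± 0.10 and 1.01 ± 0.22 in Aim2-/- cells, with overlap between states in both genotypes. These ratios are descriptions without a test, and those with length depend on the gene model.

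WT and Aim2-/- cells were compared within each state. The sources used here do not say whether WT and Aim2-/- mice were littermates. Loss of Aim2 and other differences between the mouse lines therefore cannot be told apart. In naïve cells 0 of 9 members passed, beside 0.231% of the 13441 genes tested. At an unadjusted p under 0.05, 0 of 9 members and 10.3% of all genes passed, and 0 of 9 members against 6.95% of all genes had groups of 4 that did not overlap. DESeq2 and limma-voom also called 0 members. The intervals of Phgdh, Shmt2, Mthfd1, Psat1 and Mthfd2 were the narrowest. Phgdh differed by -0.01 on the log2 scale (Aim2-/- minus WT, 95% interval -0.18 to 0.16), Shmt2 by -0.04 (-0.22 to 0.14), Mthfd1 by 0.00 (-0.20 to 0.20), Psat1 by -0.02 (-0.22 to 0.19) and Mthfd2 by 0.04 (-0.16 to 0.23). Psph (0.17, interval -0.07 to 0.42), Tyms (0.18, -0.24 to 0.59), Mthfd1l (-0.11, -0.33 to 0.11) and Shmt1 (-0.07, -0.32 to 0.18) were less tightly bounded, and the adjusted p of edgeR was at least 0.60 for every member. Under 20 alternative settings and sets of libraries, the estimates moved most for Mthfd1l (-0.33 to 0.09), Shmt1 (-0.23 to 0.08) and Mthfd1 (-0.15 to 0.15).

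After culture 0 of 9 members passed, beside 0.219% of the 13221 genes tested. At an unadjusted p under 0.05, 0 of 9 members and 2.31% of all genes passed, and 0 of 9 members had groups that did not overlap, against 2.26% of all genes. All 9 estimates were above 0, with a median of 0.07 beside 0.00 over all genes, and each interval included 0. With 1 library left out, the estimate fell as low as -0.0005 for Mthfd1, -0.0305 for Mthfd1l and -0.0259 for Tyms. With group means removed, Psph, Psat1, Mthfd2 and Shmt2 correlated with one another at 0.790 to 0.910. The 9 signs are therefore not separate observations. The highest estimates were Psph (0.26, 95% interval -0.24 to 0.76), Psat1 (0.18, -0.19 to 0.54), Mthfd2 (0.17, -0.26 to 0.60) and Shmt2 (0.14, -0.08 to 0.37). Single libraries moved these estimates by more than 1.5 times. Without WT Treg #4, Psph was at 0.45, Psat1 at 0.32 (unadjusted p = 0.042) and Mthfd2 at 0.34, and without Aim2-/- Treg #3 Psph was at 0.12, Psat1 at 0.09, Mthfd2 at 0.05 and Shmt2 at 0.08. Without Aim2-/- Treg #1, Psph was at 0.41, Psat1 at 0.28, Mthfd2 at 0.29 and Shmt2 at 0.22 (unadjusted p = 0.019). Without WT Treg #1, Psph was at 0.16, Psat1 at 0.10 and Mthfd2 at 0.08, and without Aim2-/- Treg #4 Mthfd2 was at 0.11. The adjusted p of edgeR was at least 0.69 in all of these fits. The tightest were Mthfd1 (0.02, -0.08 to 0.12), Tyms (0.00, -0.11 to 0.11) and Phgdh (0.07, -0.06 to 0.19), whose intervals exclude a difference of more than 14.3% upward. Shmt1 (0.07, -0.11 to 0.25) and Mthfd1l (0.02, -0.17 to 0.21) lay between, and the adjusted p of edgeR was 1.0 for every member after rounding. DESeq2 and limma-voom called 0 members here as well.

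The rise with culture itself was compared between genotypes as an interaction term on all 16 libraries. Of the members, 0 of 9 passed, beside 0.0205% of 14669 genes, and at an unadjusted p under 0.05 0 of 9 members and 3.49% of all genes passed. The interaction estimates ran from -0.16 for Tyms (95% interval -0.49 to 0.18) to 0.20 for Psat1 (-0.19 to 0.60).

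**Figure D3:**
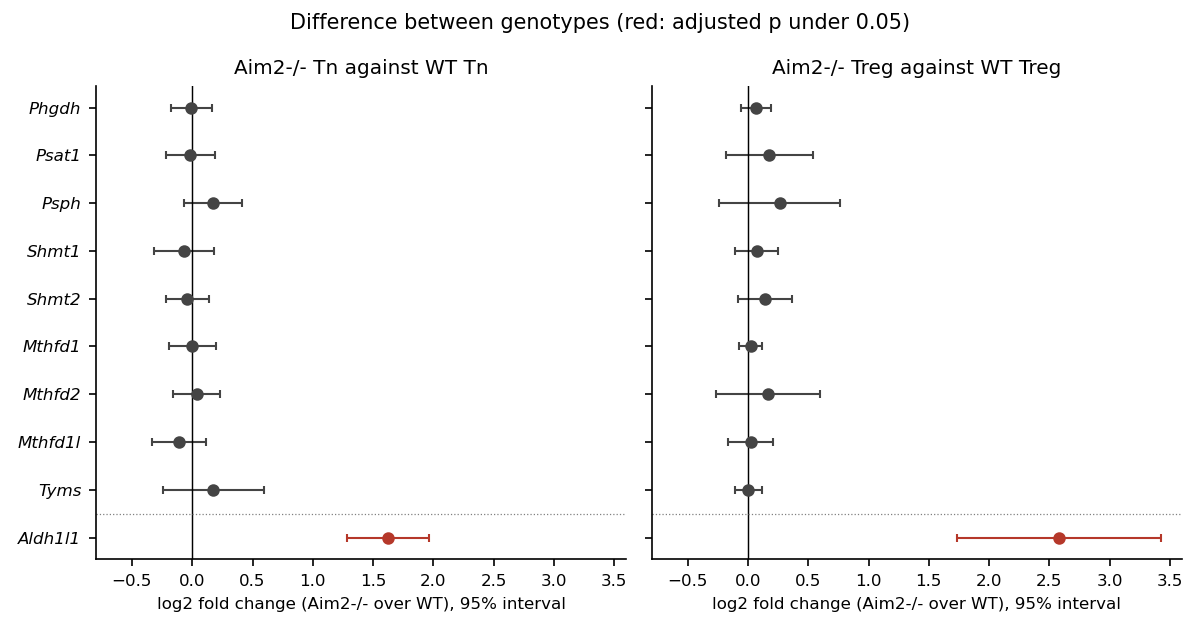
Log2 fold change between genotypes (x axis, Aim2-/- over WT) with 95% intervals in Tn (left) and Treg (right) for the 9 members and, below the dotted line, Aldh1l1 (y axis). The interval of every member includes 0 in both states, and Aldh1l1, in red, passed the test in both (1.62 in Tn and 2.58 in Treg).

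The cultured libraries differed among themselves in some members. Psph, Mthfd2 and Psat1 had an SD within groups of 0.37, 0.32 and 0.27 on the log2 scale over the 8 Treg libraries, beside a median of 0.17 over all genes, and 20.3%, 25.7% and 31.7% of genes had a larger one. Mthfd1 (0.05) and Tyms (0.06) were among the most even, as 96.7% and 93.96% of genes had a larger SD. In the naïve libraries the SDs of Psph, Mthfd2 and Psat1 were 0.14, 0.10 and 0.09, beside a median of 0.21.

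Atf4, which encodes a transcription factor of the amino acid and stress response that is known to act on Psat1, Phgdh, Shmt2 and Mthfd2, was at 249, 307, 272 and 367 CPM in WT Treg and at 253, 304, 378 and 371 CPM in Aim2-/- Treg. Psat1, Psph, Mthfd2 and Shmt2 followed the order of Atf4 over the 4 libraries in both genotypes. Of the other members, Shmt1 followed it in WT only, and Phgdh, Mthfd1, Mthfd1l and Tyms in neither. Over the 16 libraries, with group means removed, the Pearson correlation with Atf4 was 0.570 to 0.743 for Psat1, Psph, Mthfd2 and Shmt2. It was -0.648 for Mthfd1l and -0.293 to 0.197 for Shmt1, Phgdh, Tyms and Mthfd1. Of the 13221 genes tested in Treg, 128 (0.97%) followed the order of Atf4 in both genotypes, beside 4 of the 9 members. Those 4 members correlated with one another at 0.790 to 0.910, so they are not separate observations. The order was looked at after the values were seen. It is given without a test, since 3 libraries lie above a gap in Atf4 and neither side of the gap holds enough libraries. Asns, the asparagine synthetase gene and another known target of ATF4, was chosen after its values were seen. It was at 13.6, 32.1, 25.7 and 70.1 CPM in WT Treg and at 19.4, 44.2, 98.9 and 65.2 CPM in Aim2-/- Treg. In Tn the mean of Asns was only 0.169 CPM in WT and 0.197 CPM in Aim2-/- cells, with 1 to 14 counts per library. The summed Treg markers were lowest in the 3 libraries with the highest Atf4. They were at 1808 (WT #4), 1810 (Aim2-/- #3) and 1730 CPM (Aim2-/- #4) against 2098 to 2237 CPM in the other 5. The summed naïve T cell markers were also lowest there, at 698, 699 and 648 CPM in that order against 829 to 1007 CPM in the other 5. The summed cell cycle genes overlapped, at 4399 to 4577 CPM in these 3 and 4574 to 4959 CPM in the other 5. The part of these markers in the levels of the members was not tested.

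**Figure D4:**
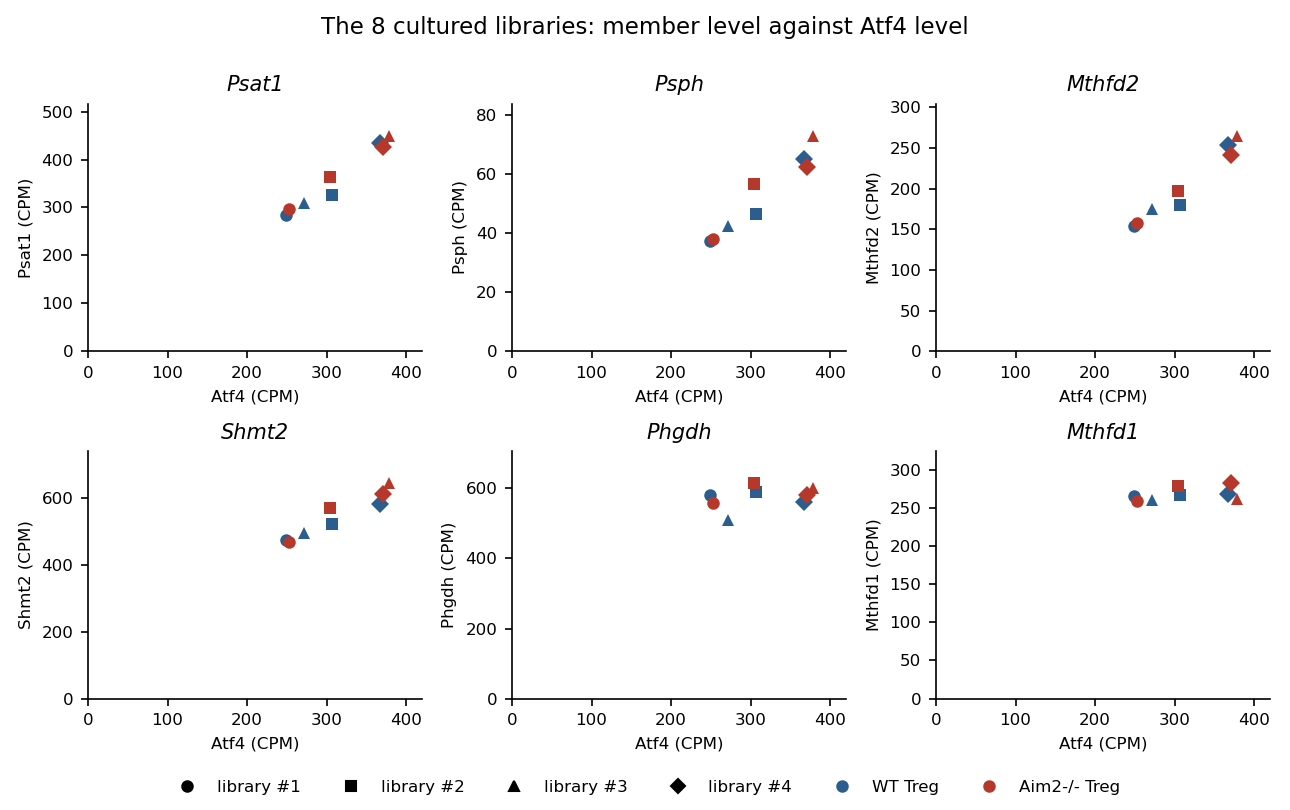
CPM of 6 members (y axes) against CPM of Atf4 (x axes) in the 8 cultured libraries, WT in blue and Aim2-/- in red, with the shape giving the library number and all axes from 0. Psat1, Psph, Mthfd2 and Shmt2 are highest in the 3 libraries with the highest Atf4 (367 to 378 CPM), and Phgdh and Mthfd1 are about level.

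The level of Atf4 mRNA did not move with culture as the members did, whereas that of Asns rose. The part of the ATF4 protein in the rise of the members was not tested. Atf4 was at 503, 528, 366 and 454 CPM in WT Tn and at 505, 544, 563 and 582 CPM in Aim2-/- Tn, and it fell by 0.66 ± 0.14 (log2, SE) in WT (edgeR adjusted p = 0.0019) and by 0.76 ± 0.12 in Aim2-/- cells (adjusted p = 0.00013). With libraries #3 and #4 alone its log2 fold change in WT was -0.39 (adjusted p = 0.11). Myc, whose product drives growth and nucleotide synthesis, rose by 1.81 ± 0.20 and 1.74 ± 0.09. E2f1, a factor of S phase entry known to act on Tyms, rose by 4.03 ± 0.13 and 4.23 ± 0.17 (adjusted p of edgeR at most 2.6e-05 in these tests). None of the 3 passed between genotypes (adjusted p of at least 0.49 in Tn and 1.0 after rounding in Treg).

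For 8 members, the 1 gene among 14669 whose log2 CPM was most like the member's over the 16 libraries, after the group means were removed, is given. It was Eif4ebp1 for Mthfd2 (Pearson correlation 0.963), Them6 for Psph (0.960), Enc1 for Psat1 (0.951), Grk2 for Shmt2 (0.940) and Ric8a for Mthfd1 (0.937). It was Pigg for Tyms (0.898), Carf for Mthfd1l (0.896) and Fam60a for Phgdh (0.848). Among the members themselves the closest pairs were Psph with Mthfd2 (0.910), Psat1 with Mthfd2 (0.907) and Psph with Shmt2 (0.893), while Psat1 with Phgdh, its neighbour in the pathway, gave 0.313. These are descriptions without a test. Each gene named as most like a member was picked as the highest of 14669, so a high correlation follows in part from that choice. For Psph, Mthfd2 and Psat1, the SD within groups was 0.37, 0.32 and 0.27 in Treg against 0.14, 0.10 and 0.09 in Tn. Their correlations therefore rest mostly on the Treg libraries.

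Around the members, 7 lists of 71 genes of neighbouring pathways were followed, of which 56 were tested in WT cells. With culture 41 rose, 10 fell and 5 did not pass, with a median log2 fold change of 1.35, where 37.7% of all genes tested rose and 39.2% fell with a median of -0.05. In Aim2-/- cells 42 of 58 rose and 11 fell, beside 39.1% and 40.2% of all genes. The WT shares of all genes are also the background of the counts of single lists.

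**Figure D5:**
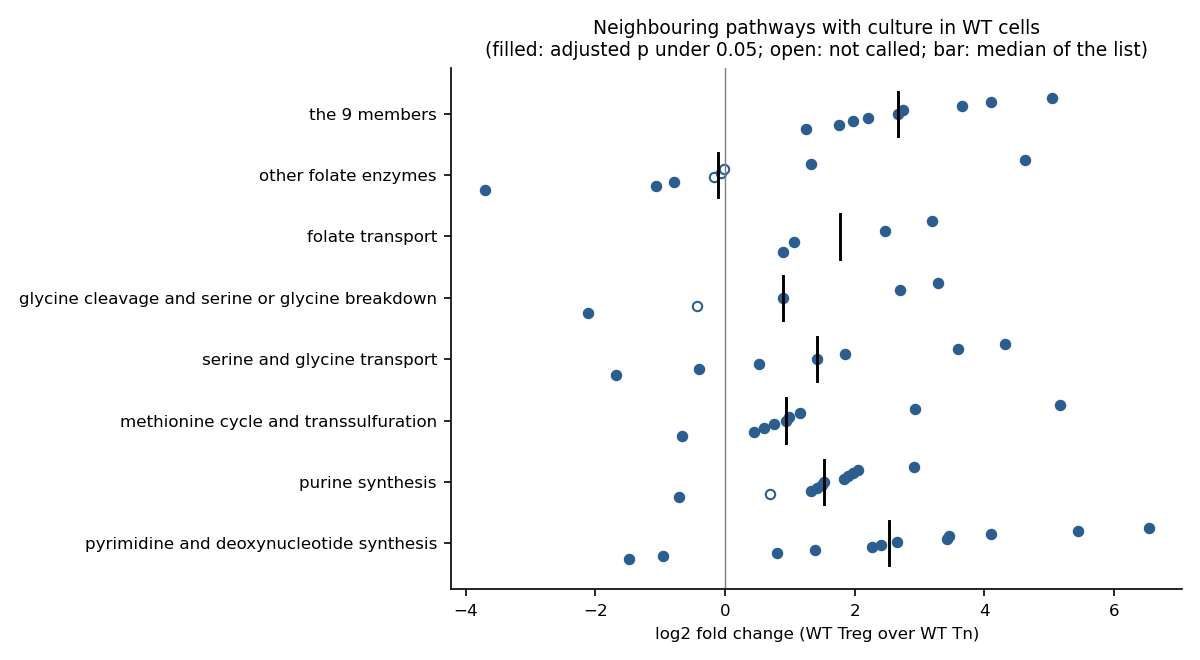
Log2 fold change with culture in WT cells (x axis) of the members and of the tested genes of 7 neighbouring pathway lists (y axis). Filled points passed the test, open points did not, and the bar is the list's median, which is 2.67 for the members, -0.12 for other folate enzymes and 2.52 for pyrimidine and deoxynucleotide synthesis.

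The list of other folate enzymes did not move as one, with 2 of 8 tested genes up and 3 down. Fpgs, which adds the glutamate tail that holds folate in the cell, rose by 1.32 ± 0.09. Ggh, which removes that tail, fell by 1.07 ± 0.16, and Aldh1l1 fell by 3.71 ± 0.34. All 4 tested genes of folate transport rose, led by the reduced folate carrier Slc19a1 (3.19 ± 0.14, from 16.7 to 155 CPM) and the proton-coupled carrier Slc46a1 (2.47 ± 0.26).

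Of 7 tested serine and glycine transporters, 5 rose and 2 fell. The glycine transporter Slc6a9 rose by 4.31 ± 0.68 from a mean of 0.376 CPM, and the neutral amino acid transporter Slc1a4 by 3.59 ± 0.16. Slc38a2 fell by 1.69 ± 0.32 from a mean of 537 to 171 CPM. Its WT Tn libraries #1 to #4 were uneven, at 688, 832, 272 and 355.5 CPM. The fall passed under all 20 alternatives, with a log2 fold change of -2.22 to -0.84. Sfxn3 fell by 0.41 ± 0.13 (edgeR adjusted p = 0.019), a call that was lost without WT Tn #3 (adjusted p = 0.076) or #4 (0.058). In the glycine cleavage and breakdown list 3 of 5 tested genes rose and 1 fell. Gcsh, the lipoyl carrier protein of glycine cleavage, rose by 3.29 ± 0.10 and Gcat by 2.70 ± 0.15, while Amt, the aminomethyltransferase of the same cleavage system, fell by 2.11 ± 0.33. Gldc, which encodes the decarboxylase of that system, had at most 11 counts in any library and was not tested.

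In the methionine cycle and transsulfuration 8 of 9 tested genes rose and 1 fell. Cth, the last enzyme of cysteine synthesis from homocysteine, had at most 2 counts in a WT Tn library and stood at 0.607 to 2.22 CPM in WT Treg, with a mean of 1.18 CPM that was at least 8.86-fold higher, taking WT Tn at the highest floor of 3 counts per library. Ahcy, which removes S-adenosylhomocysteine, rose by 2.93 ± 0.09 to 573 CPM, and Mat2b fell by 0.66 ± 0.09. In purine synthesis 9 of 11 rose, led by Pfas (2.91 ± 0.11) and Gart (2.05 ± 0.12), whose product uses a one-carbon unit, and Impdh1 fell by 0.71 ± 0.06. In pyrimidine and deoxynucleotide synthesis 10 of 12 rose, led by Rrm2 (6.54 ± 0.16), a subunit of ribonucleotide reductase, and thymidine kinase Tk1 (5.44 ± 0.15). Ctps2 fell by 1.49 ± 0.09 and Rrm2b, the reductase subunit used outside S phase, by 0.96 ± 0.18.

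Aldh1l1 was the only gene of the 7 lists to pass between genotypes, and it did so in both states. That was 1 of 56 tested list genes in Tn and 1 of 58 in Treg, beside 0.231% and 0.219% of all genes. For Aldh1l1 too, loss of Aim2 and other differences between the mouse lines cannot be told apart. Aldh1l1 encodes cytosolic 10-formyltetrahydrofolate dehydrogenase, which takes one-carbon units out of the folate pool by oxidizing them to carbon dioxide. It lies at chr6:90486427-90600203 (plus strand, GRCm38) and shares 105 exon bases with the lincRNA Gm45901 on the same strand and 499 with the antisense gene Gm15756. WT Tn libraries had 3.45, 4.78, 4.52 and 3.58 CPM, whereas those of Aim2-/- Tn had 11.2, 11.3, 14.5 and 13.1 CPM. WT Treg libraries had 0.574, 0.232, 0.272 and 0.185 CPM (17, 8, 9 and 5 counts), whereas those of Aim2-/- Treg had 2.53, 1.98, 1.85 and 1.26 CPM. The genotypes did not overlap in either state. The difference was 1.62 ± 0.15 (log2, SE) in Tn (edgeR adjusted p = 0.00059) and 2.58 ± 0.38 in Treg (adjusted p = 0.031). In Tn it passed under all 20 alternatives. In Treg it passed in 11 of 19, with a log2 fold change of 2.41 to 3.02 and an adjusted p of up to 0.42, and it failed without Aim2-/- Treg #1, #2 or #3 and without WT Treg #2, #3 or #4 (adjusted p of 0.085 to 0.18). The interaction was 0.96 (95% interval 0.16 to 1.76, unadjusted p = 0.019, adjusted p = 1.0). The summed CPM of 6 erythroid genes was 1.23 to 3.97 in WT Tn and 5.28 to 7.94 in Aim2-/- Tn. Of these genes 4 were tested there, 0 passed (lowest edgeR adjusted p = 0.36) and 3 had an unadjusted p under 0.05. In Treg the sum was at most 0.203 CPM in every library of either genotype, and its part in the level of Aldh1l1 was not tested.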

How the data were processed

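RNA-seq tables of 16 libraries, 4 in each of 4 groups, were used, with groups and replicate numbers from their titles. Per the labels and the methods, the authors made stranded mRNA libraries, aligned them to GRCm38 by STAR, estimated gene abundance by RSEM and deposited 1 unnormalized expected count per gene and library. Versions and the strand setting are not given in the sources used here, and both GENCODE m15 and an Ensembl annotation are named.

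Expected counts were rounded. A gene was tested if 4 or more of the libraries compared had 10 or more counts, with edgeR 4.0.16 (TMM, robust quasi-likelihood F test, two-sided, Benjamini-Hochberg over all genes tested, threshold 0.05) on 8 libraries per comparison, and on all 16 for the interaction. The SE is the coefficient over the root of F, and intervals are 95%. The study used TMM with limma-voom, which is an alternative here (limma 3.58.1), as are DESeq2 1.42.0, other scalings and filters, and fewer libraries. The scripts were tested on simulated data. Lengths are merged exons of GENCODE M21, which lists 98.7% of these genes.

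The members, lists and tests were chosen with earlier results of these data known. Named were all members, 3 transcription factor genes, Aim2 as label check, list genes that passed between genotypes or in the interaction, and the 2 largest rises and falls of each list with culture in WT. Some items under this rule are not reported here.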

Additional observations from a re-analysis of the deposited data

Results flagged for a closer look

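Over 64 groups of 4 libraries (the members, 3 transcription factor genes, Aldh1l1 and the 3 ratios in each group), 1 library lay far from the other 3 by Dixon's criterion, and chance marks about 1 in 20 groups. Tyms was at 111.4 CPM in WT Treg #1, against 118.1 to 119.0 CPM in the other 3 libraries of the group.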

How the results depend on the processing

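With culture, all 9 members passed upward in both genotypes under every alternative, and between genotypes and in the interaction 0 passed under any. The number of genes passing between genotypes in Tn was 31, and it was 127 with DESeq2, 47 with no filter on low counts, 18 with at least 10 counts in every library, 50 with all 16 libraries in 1 fit, 51 with replicates 1 and 2 against 3 and 4 as a covariate and 493 with replicates 3 and 4 only. In Treg it was 29, and it was 52 with DESeq2, 17 with the filter on every library, 6 with replicates 3 and 4 only and 15 to 22 without 1 library (lowest without Aim2-/- Treg #2, WT Treg #2 or WT Treg #3). In the interaction it was 3, and it was 10 with DESeq2, 0 with the filter on every library and 2 to 5 without 1 library (highest without Aim2-/- Tn #1). The cause of these differences was not tested beyond the number of libraries and genes.

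The sign of small genotype estimates of members changed, on the log2 scale. In Tn, Phgdh was 0.0078 and Psat1 0.0001 with upper-quartile factors. Mthfd1 was -0.0153 with DESeq2, -0.0154 with RLE factors, -0.0247 with library totals, -0.0216 with no filter, -0.0088 with the filter on every library and -0.0051 with all 16 libraries. With replicates 3 and 4 only, Phgdh was 0.0007 and Mthfd1 -0.1506. With replicates 1 and 2 only, Shmt1 was 0.0811, Shmt2 0.0561, Mthfd2 -0.0078 and Mthfd1l 0.0898. In Treg, Mthfd1l was -0.0003 and Tyms -0.0193 with library totals, and Tyms was -0.0015 with upper-quartile factors and -0.0241 with replicates 1 and 2 only. In the interaction with replicates 1 and 2 only, Shmt1 was -0.065, Mthfd1 -0.1263 and Mthfd1l -0.0522. Without 1 library, the Tn ranges were -0.0483 to 0.0229 for Phgdh, -0.0713 to 0.0241 for Psat1 and -0.0626 to 0.0416 for Mthfd1, and the Treg ranges -0.0005 to 0.0388 for Mthfd1, -0.0305 to 0.0669 for Mthfd1l and -0.0259 to 0.0192 for Tyms. In the interaction they were -0.0363 to 0.2857 for Psph and -0.0143 to 0.0809 for Mthfd1. The cause was not tested.

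The replicate numbers share no stated mouse or day. For that reason they were not treated as pairs. After group means were removed, same-numbered libraries of both genotypes correlated at 0.0289 to 0.346 in Tn and -0.0197 to 0.487 in Treg. Differently numbered ones correlated at -0.293 to 0.295 and at -0.568 to 0.455. WT Treg #1 gave 0.487, 0.326, -0.432 and -0.386 with Aim2-/- Treg #1 to #4, and WT Treg #4 gave -0.568, -0.286, 0.455 and 0.420. WT Treg #2 had the signs of #1, and #3 lay between -0.214 and 0.1. The cause of this likeness by number was not tested. With a replicate block, 29 genes passed between genotypes in Tn, 41 in Treg and 2 in the interaction, and 10352 and 10859 with culture in WT and Aim2-/- cells. The fall of Sfxn3 with culture was also lost with all 16 libraries in 1 fit (adjusted p = 0.058) and with replicates 1 and 2 only (log2 fold change -0.07, adjusted p = 0.39). Depth limits Aldh1l1 in WT Treg, which the filter on every library removes. All members passed that filter. Tyms had the fewest counts, with a lowest count of 73 in WT Tn and 96 in Aim2-/- Tn. Its interval between genotypes in Tn was the widest of the members (-0.24 to 0.59).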
